A study of Homo sapiens with 4 samples.

Results

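The 10 genes followed here, CDKN1A, CCNG1, BTG2, GADD45A, MDM2, PPM1D, FDXR, SESN1, TP53I3 and GDF15, are known transcriptional targets of the tumour suppressor p53. They were taken by name alone: every probe on the array that is not a control and carries 1 of these names was a member, whatever its value. The array holds 13 such probes on 31 spots, out of 41000 probes for 30982 gene names. All 13 lay well above background in both channels on all 4 arrays and none was saturated, so no member was lost to a filter.

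HCT116 is an established human colon cancer line with wild-type p53. The study asked how gene expression differs in HCT116 clones that stably express a short hairpin RNA against N-BLR, a long non-coding RNA, and 2-colour Agilent arrays were used for it. The groups are clone #3-1 (N-BLR shRNA #3-1 vector, 2 arrays) and clone #4-7 (N-BLR shRNA #4-7 vector, 2 arrays). Each array was also hybridised with RNA of the empty vector control, so that control is shared by all 4 arrays and counts as 1 sample. All lines are HCT116 cells that carry a vector. Each shRNA line is 1 clone, so an effect of N-BLR silencing cannot be told apart from a difference between clones. The labels speak of lentivirus, whereas the methods describe transfection with selection. The labels put the clone in Cy5 and the empty vector in Cy3 on every array, with no dye swap. They name the paired arrays as biological replicates, where the methods speak of duplicates. Nothing states that the duplicates came from separate cultures, so p-values measure only the spread between these arrays, which may be technical.

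When DNA is damaged or a cell is otherwise stressed, p53 is released from its inhibitor MDM2, binds DNA as a tetramer and raises transcription of genes that stop the cell cycle, assist repair, adjust metabolism or start cell death. CDKN1A encodes p21, the inhibitor of cyclin-dependent kinases through which p53 also lowers many genes of the cell division programme. Some targets act back on p53: MDM2 marks it for degradation and the phosphatase PPM1D removes its activating phosphates. In unstressed colon cancer cells with wild-type p53 these genes keep a basal level. The methods do not state whether the cells on these arrays were growing or stressed when RNA was taken.

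p53 binds 2 copies of a 10-base half-site, and windows of 250 bases before each gene start (RefSeq, GRCh38.p14) were searched for a pair of p53 half-sites with up to 13 bases between them and at most 2 mismatches in 20 letters. The half-site reads alike on both strands. Such a pair was found in 2333 of 35116 windows, or 6.64%. The members had 16 windows for 9 genes, of which 6 windows (37.5%) of 4 genes, MDM2, FDXR, CCNG1 and SESN1, held a pair. Over all genes 8.12% had a window with one. The MDM2 and the CCNG1 pair each lie in 2 overlapping windows and are counted in both. The windows of CDKN1A, BTG2, PPM1D, TP53I3 and GDF15 did not hold these letters, and bases outside the windows were not searched. GADD45A was not matched to a window. A match is a description of the letters and not a binding site. 1 window for each of the 4 genes is printed to show where the pair lies, and each printed pair has 2 mismatches. Capitals mark the paired half-sites, and each window is written 5′ to 3′ on the strand of the gene.
MDM2, chr12:68808767-68809016, plus strand: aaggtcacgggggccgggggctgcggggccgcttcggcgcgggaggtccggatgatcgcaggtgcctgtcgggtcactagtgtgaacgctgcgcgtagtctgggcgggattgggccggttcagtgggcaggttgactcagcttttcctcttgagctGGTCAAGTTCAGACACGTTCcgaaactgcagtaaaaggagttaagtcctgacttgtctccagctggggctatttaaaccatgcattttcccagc
FDXR, chr17:74872995-74873244, minus strand: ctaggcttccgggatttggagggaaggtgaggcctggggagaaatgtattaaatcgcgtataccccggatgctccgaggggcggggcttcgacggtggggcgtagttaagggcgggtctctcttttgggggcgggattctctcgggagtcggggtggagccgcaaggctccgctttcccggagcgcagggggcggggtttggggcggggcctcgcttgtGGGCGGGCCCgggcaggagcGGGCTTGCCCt
CCNG1, chr5:163437321-163437570, plus strand: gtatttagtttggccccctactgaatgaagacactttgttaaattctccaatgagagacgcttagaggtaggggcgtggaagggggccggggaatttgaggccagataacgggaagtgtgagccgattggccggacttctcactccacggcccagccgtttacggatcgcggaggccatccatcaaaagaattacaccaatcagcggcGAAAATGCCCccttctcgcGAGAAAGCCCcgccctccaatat
SESN1, chr6:109094847-109095096, minus strand: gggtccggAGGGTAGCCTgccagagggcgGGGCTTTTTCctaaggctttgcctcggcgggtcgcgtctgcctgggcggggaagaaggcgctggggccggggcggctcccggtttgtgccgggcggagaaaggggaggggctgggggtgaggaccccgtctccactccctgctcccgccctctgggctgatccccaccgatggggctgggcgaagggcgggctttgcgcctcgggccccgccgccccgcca
The MDM2 half-sites abut, 94 to 75 bases before an internal start of the gene. In FDXR 10 bases separate the half-sites and 1 of them is exact. In CCNG1 and SESN1 the half-sites lie 9 and 11 bases apart.

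The channels have to be described before any direction is given. All ratios are log2 of Cy5 over Cy3 after loess and quantile normalization, and a value is called where limma's moderated test gave an unadjusted p under 0.001, with Benjamini-Hochberg adjusted p over all 41000 probes given beside it. CDH1, the epithelial cadherin, had a log2 ratio of -2.60 in clone #3-1 and -1.34 in clone #4-7. VIM, the intermediate filament vimentin, had 4.45 and 2.39 by its probe A_23_P161190. Read by the labels, these directions are the opposite of those the study gives for these clones. Beside the arrays, the study reported its directions in the same clones by qRT-PCR and immunofluorescence, and measured E-cadherin by Western blot. The single channels differed as well. Within Cy5, which the labels give to 2 different clones, 32 of 30982 genes were called between the #3-1 and #4-7 arrays (0.103%). Within Cy3, which the labels give to the same control on every array, 5914 genes were called (19.1%). Among the members 0 of 10 were called within Cy5 and 4 of 10 within Cy3, and all 13 member probes differed more in Cy3 than in Cy5. At an unadjusted p under 0.05 by the same limma fit, CDKN1A was the single gene of the 10, by its brightest probe, past that level within Cy5. The labels are kept for the names of the arrays. Each direction of a ratio below is given as higher or lower in Cy5, also where a sentence names only the clone. By the labels that is higher or lower in the shRNA clone than in the empty vector; with the channels exchanged every sign would turn. Which RNA each channel held was not tested.

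**Figure D1:**
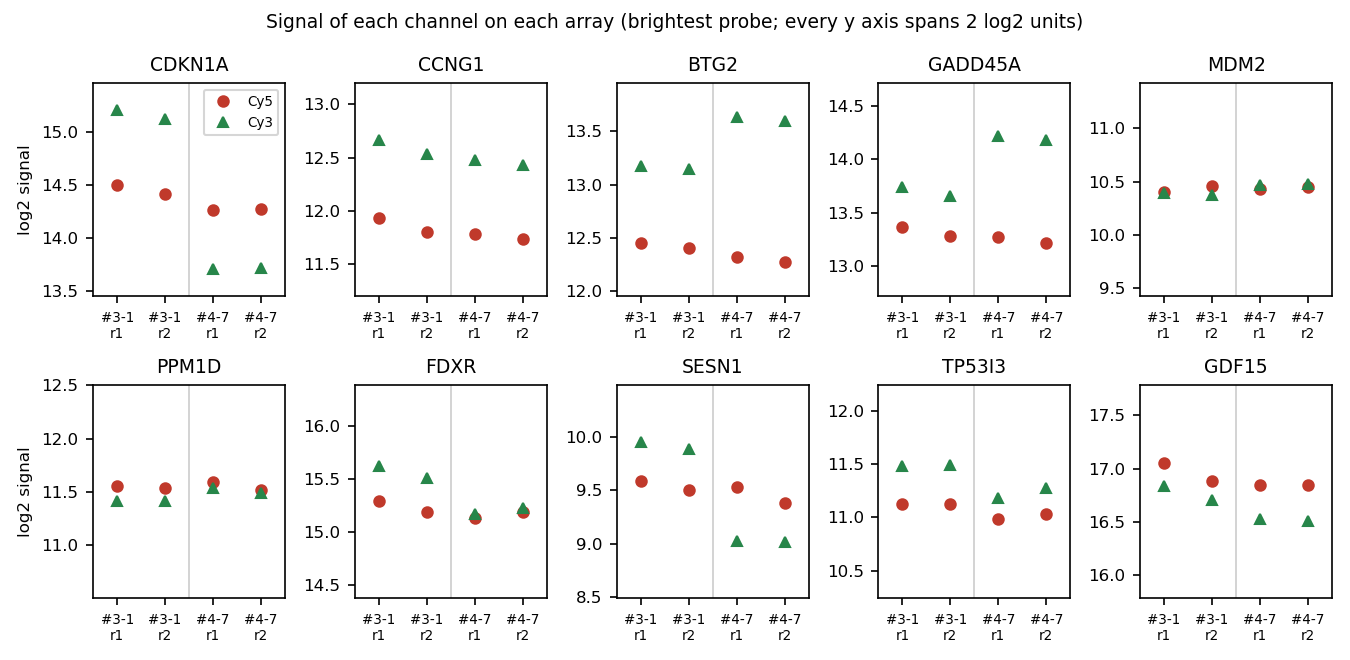
Normalized log2 signal of Cy5 (red circles) and Cy3 (green triangles) for the brightest probe of each of the 10 p53 target genes, with 1 point per array and a grey line between the clones. For CDKN1A the Cy3 signal was 15.20 and 15.12 on the #3-1 arrays and 13.71 and 13.72 on the #4-7 arrays, while Cy5 stayed between 14.27 and 14.50.

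By the brightest probe of each gene, 7 of the 10 targets were lower in Cy5 on the #3-1 arrays (CDKN1A, CCNG1, BTG2, GADD45A, FDXR, SESN1 and TP53I3), 0 were higher, and MDM2, PPM1D and GDF15 were not called. At limma's unadjusted p under 0.05, PPM1D and GDF15 were the 2 targets higher there. Over all genes 16.5% were called lower and 16.3% higher there. The median log2 ratio of the 10 was -0.37, against 0.01 over all genes. On the #4-7 arrays 4 targets were lower (CCNG1, BTG2, GADD45A and TP53I3), where 15.3% of all genes were, and 3 were higher (CDKN1A, SESN1 and GDF15), where 15.8% were. Their median there was 0.03, against 0.00 over all genes, so the targets did not move one way in clone #4-7. Both clones were called in the same direction for 4 targets, all lower in Cy5, and in opposite directions for 2, CDKN1A and SESN1. Over all genes 15.6% were called in the same direction, higher or lower, and 3.66% in opposite directions. MDM2 and PPM1D were called in neither clone. These counts describe a list chosen with results of these data known, and 10 genes are too few to read a share closely. The shares over all genes, here and below, include genes near background, whereas all member probes lay well above it.

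**Figure D2:**
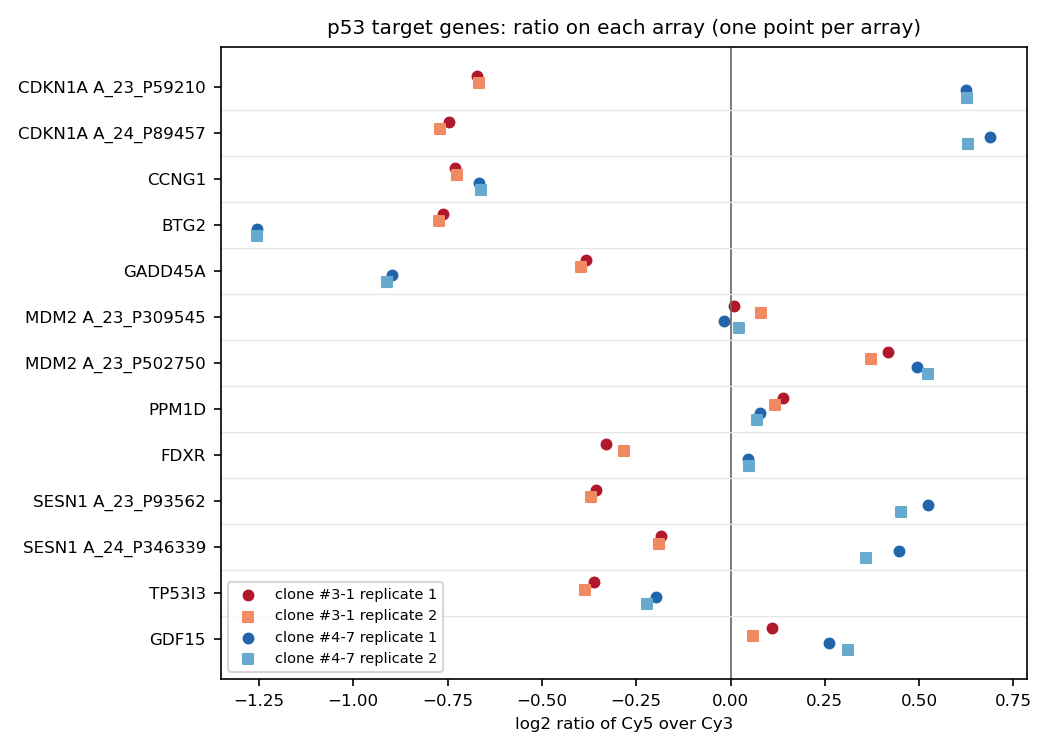
Log2 ratio of Cy5 over Cy3 for each of the 13 probes of the 10 p53 target genes, with 1 point per array (red and orange: clone #3-1, dark and light blue: clone #4-7). CCNG1, BTG2, GADD45A and TP53I3 lie below 0 on all 4 arrays, whereas CDKN1A and SESN1 lie below 0 on the #3-1 arrays and above 0 on the #4-7 arrays.

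Among the cell cycle brakes, CDKN1A had opposite signs in the clones. Its probe A_23_P59210 (build hg17, chr6:36762684-36762743) is printed 10 times on each array, and its log2 ratio was -0.67 and -0.67 on the #3-1 arrays and 0.62 and 0.63 on the #4-7 arrays. The arrays of a clone nearly coincide and the clones do not overlap. The mean was 1.59-fold lower in Cy5 in clone #3-1 (SE 0.027 on the log2 scale, limma adjusted p = 4.12e-05) and 1.54-fold higher in clone #4-7 (adjusted p = 5.93e-05). The 10 spots had an SD between 0.024 and 0.043 within an array, so the spread between spots was not smaller than that between arrays. The second CDKN1A probe, A_24_P89457 (chr6:36760156-36760215), gave -0.75 and -0.77 on the #3-1 arrays and 0.69 and 0.63 on the #4-7 arrays. Both probes therefore show the same pattern, called in each clone. The difference between the clones was -1.29 by the first probe (95% confidence interval -1.39 to -1.20, adjusted p = 4.71e-05) and -1.42 by the second (-1.53 to -1.31). Within Cy3 the first probe was 2.73-fold higher on the #3-1 arrays than on the #4-7 arrays (adjusted p = 8.87e-05), and within Cy5 the same difference was 1.14-fold (adjusted p = 0.651).

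CCNG1 encodes cyclin G1, which brings a protein phosphatase to MDM2. Its log2 ratio (probe at chr5:162803587-162803646) was -0.73 and -0.73 on the #3-1 arrays and -0.67 and -0.66 on the #4-7 arrays. All 4 arrays lie close together below 0, and CCNG1 was lower in Cy5 by 1.66-fold in clone #3-1 (adjusted p = 3.43e-05) and 1.59-fold in clone #4-7 (adjusted p = 5.16e-05). The clones were not called different, with a difference of -0.06 (95% interval -0.16 to 0.04).

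BTG2, an antiproliferative factor that promotes removal of mRNA poly(A) tails, had log2 ratios of -0.76 and -0.77 on the #3-1 arrays and -1.25 and -1.25 on the #4-7 arrays (chr1:200010111-200010170). It was 1.70-fold lower in Cy5 in clone #3-1 and 2.39-fold lower in clone #4-7, with adjusted p of 3.01e-05 and 1.45e-05. GADD45A, a stress sensor that binds cell cycle kinases and the replication clamp, had -0.38 and -0.40 on the #3-1 arrays and -0.90 and -0.91 on the #4-7 arrays (chr1:67865392-67865451). It was 1.31-fold and 1.87-fold lower in Cy5 (adjusted p = 0.000207 and 2.79e-05). In both genes the 4 arrays were below 0 and the #4-7 arrays lower than the #3-1 arrays. The difference between the clones was 0.49 for BTG2 (95% interval 0.39 to 0.59, adjusted p = 0.000556) and 0.51 for GADD45A (0.41 to 0.61, adjusted p = 0.000489). The clone with the lower ratio for BTG2 and GADD45A was thus not the one with the lower ratio for CDKN1A. The Cy3 signal of BTG2 was 13.18 and 13.15 on the #3-1 arrays and 13.63 and 13.60 on the #4-7 arrays, and that of GADD45A 13.74 and 13.66 against 14.22 and 14.18. In Cy3 BTG2 was 1.37-fold and GADD45A 1.41-fold lower on the #3-1 arrays than on the #4-7 arrays, whereas in Cy5 BTG2 differed by 0.13 (95% interval -0.01 to 0.27) and GADD45A by 0.08 (-0.07 to 0.24) on the log2 scale.

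The feedback regulators moved little or were not settled by their probes. MDM2 is measured by a pair of probes that disagree and that the array assigns to different transcripts of the gene. The brighter one, A_23_P309545 (chr12:67489279-67489338), had log2 ratios of 0.01 and 0.08 on the #3-1 arrays and -0.02 and 0.02 on the #4-7 arrays, and was called in neither clone (95% interval -0.04 to 0.13 and -0.08 to 0.09). The other, A_23_P502750 (chr12:67520089-67520148), lies further along the gene and is printed 10 times. It had 0.42 and 0.37 on the #3-1 arrays and 0.50 and 0.52 on the #4-7 arrays, 1.31-fold and 1.42-fold higher in Cy5 (adjusted p = 0.00025 and 0.000124). Its spots had an SD of 0.043 to 0.079 within an array, with 8 or 9 of the 10 used, and every one of those spots was above 0. With the deposited table the ratios of this probe were 0.61 and 0.78. Its log2 Cy3 signal lay between 7.74 and 8.08 over the arrays, against 10.37 to 10.48 for the brighter probe. Whether transcript or signal level underlies the disagreement was not tested. No direction can be given for MDM2 as a gene. With the mean of its probes in place of the brightest one, MDM2 was called higher in both clones. This made 1 target higher in clone #3-1 and 4 in clone #4-7.

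PPM1D had log2 ratios of 0.14 and 0.12 on the #3-1 arrays and 0.08 and 0.07 on the #4-7 arrays (chr17:56096417-56096476). All 4 arrays were slightly above 0 and none of the calls was made. Its adjusted p values were 0.0125 for clone #3-1 and 0.0773 for #4-7, and the 95% interval of the clone difference was -0.05 to 0.16.

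The metabolic and redox targets differed among themselves. SESN1 encodes sestrin 1, a stress protein that restrains the growth kinase complex mTORC1. Its brighter probe, A_23_P93562 (chr6:109415170-109415229), had log2 ratios of -0.36 and -0.37 on the #3-1 arrays and 0.52 and 0.45 on the #4-7 arrays. Like CDKN1A it had opposite signs, 1.29-fold lower in Cy5 in clone #3-1 (adjusted p = 0.000423) and 1.40-fold higher in clone #4-7 (adjusted p = 0.00017). The second SESN1 probe, A_24_P346339 (chr6:109416498-109416557), gave -0.18, -0.19, 0.45 and 0.36 in the same order and was called in clone #4-7 alone. The difference between the clones was called by both probes, with -0.85 (95% interval -0.96 to -0.73) and -0.59 (-0.71 to -0.47). The Cy3 signal of the brighter probe was 9.96 and 9.89 on the #3-1 arrays and 9.02 on both #4-7 arrays, and its Cy5 signal lay between 9.38 and 9.59. Within Cy3 it was 1.87-fold higher on the #3-1 arrays, against 1.07-fold within Cy5. The call of the brighter probe in clone #3-1 was lost without replicate 1 (-0.37) or replicate 2 (-0.36) of that clone, and also with an offset of 0 (-0.39), plain subtraction (-0.40), processed signals (-0.38) or the deposited table (-0.38). For the second probe the difference was not called with an offset of 0 (-0.80), plain subtraction (-0.92) or no normalization between arrays (-0.57), nor was its value in clone #4-7 (0.56, 0.65 and 0.37), and with processed signals the difference was called at -0.96.

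FDXR, the mitochondrial ferredoxin reductase that passes electrons for iron-sulfur cluster and steroid synthesis, had log2 ratios of -0.33 and -0.28 on the #3-1 arrays and 0.05 and 0.05 on the #4-7 arrays (chr17:70370245-70370304). The #3-1 arrays were below 0 and the #4-7 arrays near it. It was 1.24-fold lower in Cy5 in clone #3-1 (adjusted p = 0.0006), not called in clone #4-7 (adjusted p = 0.239), and the clones differed by -0.35 (95% interval -0.46 to -0.25, adjusted p = 0.00197). This difference was no longer called when any 1 of the 4 arrays was left out (values from -0.38 to -0.33), nor was the ratio of clone #3-1 without its replicate 1 (-0.28) or 2 (-0.33). With all arrays kept the difference was also lost with an offset of 0 (-0.35), plain subtraction (-0.36), processed signals (-0.26) or the deposited table (-0.26), and the ratio of clone #3-1 with the first 3 of these (-0.31, -0.31 and -0.30). TP53I3, a quinone oxidoreductase linked to reactive oxygen, had -0.36 and -0.39 on the #3-1 arrays and -0.20 and -0.22 on the #4-7 arrays. Its probe spans chr2:24212266-24214007 and is not 1 block of the genome. TP53I3 was 1.30-fold lower in Cy5 in clone #3-1 (adjusted p = 0.000257) and 1.16-fold lower in clone #4-7 (adjusted p = 0.00224). The 4 arrays were below 0, yet the call in clone #4-7 was lost without any 1 array (-0.22 without #4-7 replicate 1, -0.20 without #4-7 replicate 2, and -0.21 without either #3-1 array). It was also lost with all arrays kept, with an offset of 0 (-0.21), plain subtraction (-0.22), processed signals (-0.26) or the deposited table (-0.26). The clone difference of TP53I3, -0.16 (95% interval -0.27 to -0.06, limma adjusted p = 0.0248), was not called.

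GDF15, a secreted cytokine of the TGF-beta family that rises in cell stress, was the one member encoding a secreted signal. Its log2 ratio was 0.11 and 0.06 on the #3-1 arrays and 0.26 and 0.31 on the #4-7 arrays (chr19:18360890-18360949). All 4 arrays were above 0 and the #4-7 arrays higher. GDF15 was 1.22-fold higher in Cy5 in clone #4-7 (adjusted p = 0.00105) and not called in clone #3-1 (adjusted p = 0.0755). The difference between the clones was -0.20 (95% interval -0.32 to -0.09, limma adjusted p = 0.0178). Its interval left out 0, but it did not pass the threshold for a call. The call in clone #4-7 was lost without its replicate 1 (0.31) or replicate 2 (0.26), and with all arrays kept it was lost with a normexp offset of 0 (0.29), plain subtraction (0.28), Feature Extraction's processed signals (0.27) or the deposited table (0.27). With either of the last 2 the clone difference shrank to -0.07 and the ratio of clone #3-1 was 0.20, as it was without normalization between arrays (0.20), where it was not called.

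Between the clones, 2 targets had a higher ratio on the #3-1 arrays (BTG2 and GADD45A), where 11.3% of all genes did, and 3 a lower one (CDKN1A, FDXR and SESN1), where 11.6% did. The other 5 were not called. A level or dye effect alike on all 4 arrays cancels in this comparison, and it does not depend on which channel is the control except for its sign. Within Cy3 alone BTG2 and GADD45A were called lower and CDKN1A and SESN1 higher on the #3-1 arrays. The Cy5 signal of a member probe spanned at most 0.38 on the log2 scale over all 4 arrays and the Cy3 signal up to 1.49.

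**Figure D3:**
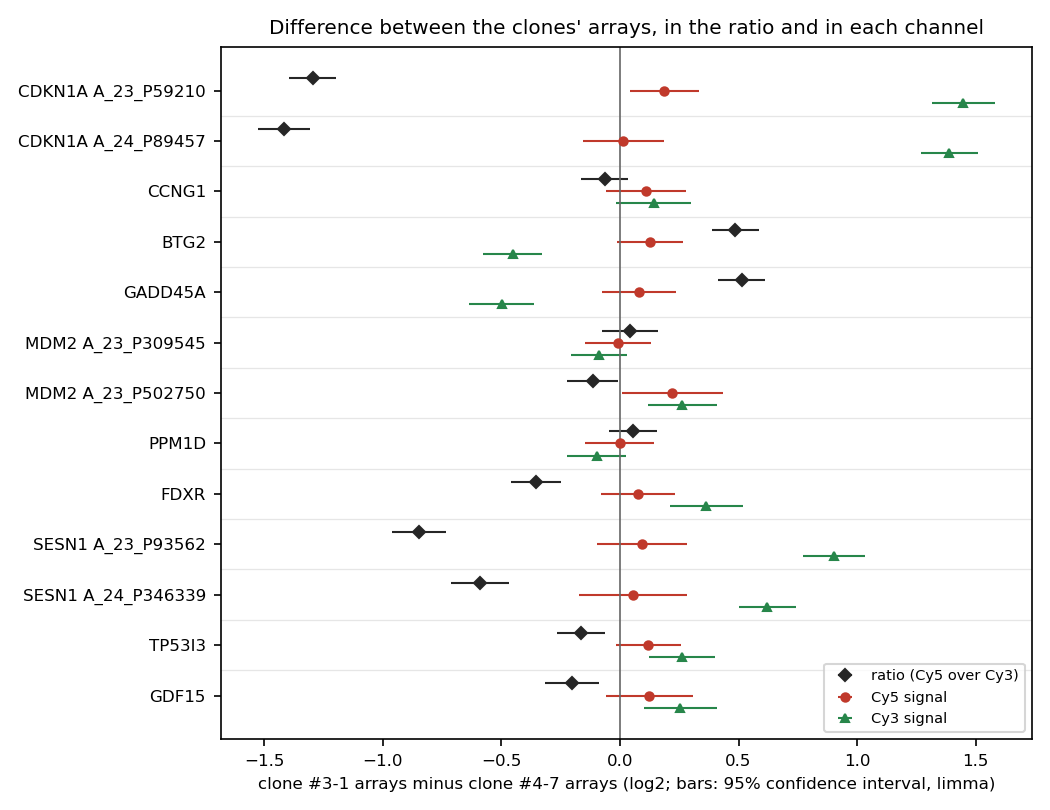
Difference of the #3-1 arrays minus the #4-7 arrays for each member probe on the log2 scale, for the ratio (black diamonds), the Cy5 signal (red circles) and the Cy3 signal (green triangles), with 95% confidence intervals from limma over 4 arrays. For CDKN1A, SESN1, BTG2, GADD45A and FDXR the Cy3 interval lies away from 0 on the side opposite to the ratio, and the Cy5 points of all 13 probes lie between -0.01 and 0.22.

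MDM4, the relative of MDM2 that masks the activation domain of p53, has 3 probes. The brightest, A_23_P103503, had -0.11 and -0.09 on the #3-1 arrays and 0.42 and 0.42 on the #4-7 arrays, with a called clone difference of -0.52 (95% interval -0.62 to -0.42). A second, A_24_P362432, was also higher in clone #4-7 alone (0.30 and 0.23), whereas A_24_P778649 was above 0 on all 4 arrays (0.46, 0.42, 0.26 and 0.31), so the probes of MDM4 disagree for clone #3-1. The clone difference was not called by A_24_P362432 (-0.29) or by A_24_P778649 (0.16), so the probes disagree on it as well. Of 23 relatives and regulators of p53, 7 were higher and 3 lower in Cy5 in clone #3-1 (16.3% and 16.5% of all genes), and 9 were higher and 6 lower in clone #4-7 (15.8% and 15.3%). CHEK1, the checkpoint kinase that phosphorylates p53, was higher in both clones (0.94 and 0.39). The cofactor DAXX (0.49 and 0.50) and the ubiquitin ligase RCHY1 (0.37 and 0.54) were also higher in both, and the ubiquitin ligase RFWD2 (-0.21 and -0.30) lower in both. CDKN2A, whose locus encodes the MDM2 inhibitor ARF, was higher in clone #3-1 (0.84) and not called in clone #4-7 (-0.02), a called difference of 0.87. PPP1R13B, a p53-binding protein, had opposite signs (-0.44 and 0.37), a called difference of -0.82.

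Other p53 targets were called on both sides of 0, as were all genes, and some of their counts lie near the share over all genes. Of 12 further cell cycle brakes and checkpoint targets, 3 were higher and 6 lower in Cy5 in clone #3-1 (16.3% and 16.5% of all genes), and 5 were higher and 5 lower in clone #4-7 (15.8% and 15.3%). BTG1 (-0.43 and -0.66), TOB1 (-0.71 and -0.46) and CDC14B (-0.79 and -0.97) were lower in both clones, and E2F7 (0.68 and 0.51) and GTSE1 (0.53 and 0.29) higher in both. SFN, the 14-3-3 sigma protein that holds mitotic kinases in the cytoplasm, had the pattern of CDKN1A, with -0.71 in clone #3-1 and 0.25 in clone #4-7. The kinase PLK2 had the reverse one, 0.34 and -1.88, with a clone difference of 2.21 (adjusted p = 2.12e-05).

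Of 19 death targets on the array, 3 were higher and 8 lower in Cy5 in clone #3-1 (16.3% and 16.5% of all genes), and 3 were higher and 4 lower in clone #4-7 (15.8% and 15.3%). PMAIP1, the BH3-only protein NOXA, was lower in both (-0.54 and -0.94), as were PERP, a desmosome protein (-0.46 and -1.01), and TP53INP1 (-0.81 and -0.58). The death receptor FAS (0.72 and 0.20), the BH3-only protein BID (0.25 and 0.63) and the nuclease AEN, named ISG20L1 on the array (0.40 and 0.44) were higher in both. PHLDA3, an inhibitor of AKT, was lower in clone #3-1 (-0.83) and not called in clone #4-7 (-0.17), a called difference of -0.66.

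Of 23 repair and metabolism targets on the array, 7 were higher and 4 lower in clone #3-1 (16.3% and 16.5% of all genes), and 9 were higher and 4 lower in clone #4-7 (15.8% and 15.3%). The translesion polymerase POLH (0.28 and 0.78), PRKAB1, a subunit of the energy-sensing kinase AMPK (0.68 and 0.32), and the lipid transfer protein PLTP (0.38 and 0.86) were higher in both clones, and CD82, a tetraspanin known as a metastasis suppressor, was lower in both (-1.15 and -0.46). 4 genes of this list were called with opposite signs, where 3.66% of all genes were. Among the 4 were the serpin SERPINB5 (-0.94 and 0.34) and DDB2, which recognises damage for nucleotide excision repair (-0.43 and 0.35). Both had the pattern of CDKN1A and SESN1, with called clone differences of -1.28 and -0.78.

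The genes of the division programme, which p53 lowers through p21, were mostly higher in Cy5, where 16.3% and 15.8% of all genes were called higher in the clones. Of 26 genes, 24 were higher and 1 lower in Cy5 in clone #3-1, with a median log2 ratio of 0.68, and 18 were higher and 2 lower in clone #4-7, with a median of 0.42. In both clones 17 were higher, where 15.6% of all genes were called in the same direction, higher or lower. Among the 17 were CCNA2 (0.83 and 0.92) and CCNB1 (0.87 and 0.69), the cyclins of S phase and mitosis, and UBE2C (0.92 and 0.60), a ubiquitin-conjugating enzyme of mitotic exit. The phosphatase CDC25B was lower in both (-0.40 and -0.30), and MKI67, which encodes the Ki-67 antigen, had opposite signs (0.53 and -0.53). The transcription factor E2F1 was higher in clone #3-1 (0.91) and not called in clone #4-7 (0.10). Between the clones 11 of the 26 had a higher ratio on the #3-1 arrays and 0 a lower one (15 and 1 at limma's unadjusted p under 0.05). Over all genes 11.3% were called with a higher and 11.6% with a lower ratio there. In clone #3-1 these genes were thus higher in Cy5 where CDKN1A was lower, while in clone #4-7 most of them and CDKN1A were both higher. Within Cy5 0 of the 26 were called between the clones (2 at an unadjusted p under 0.05) and within Cy3 8 were. Over all genes 0.103% were called within Cy5 and 19.1% within Cy3.

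**Figure D4:**
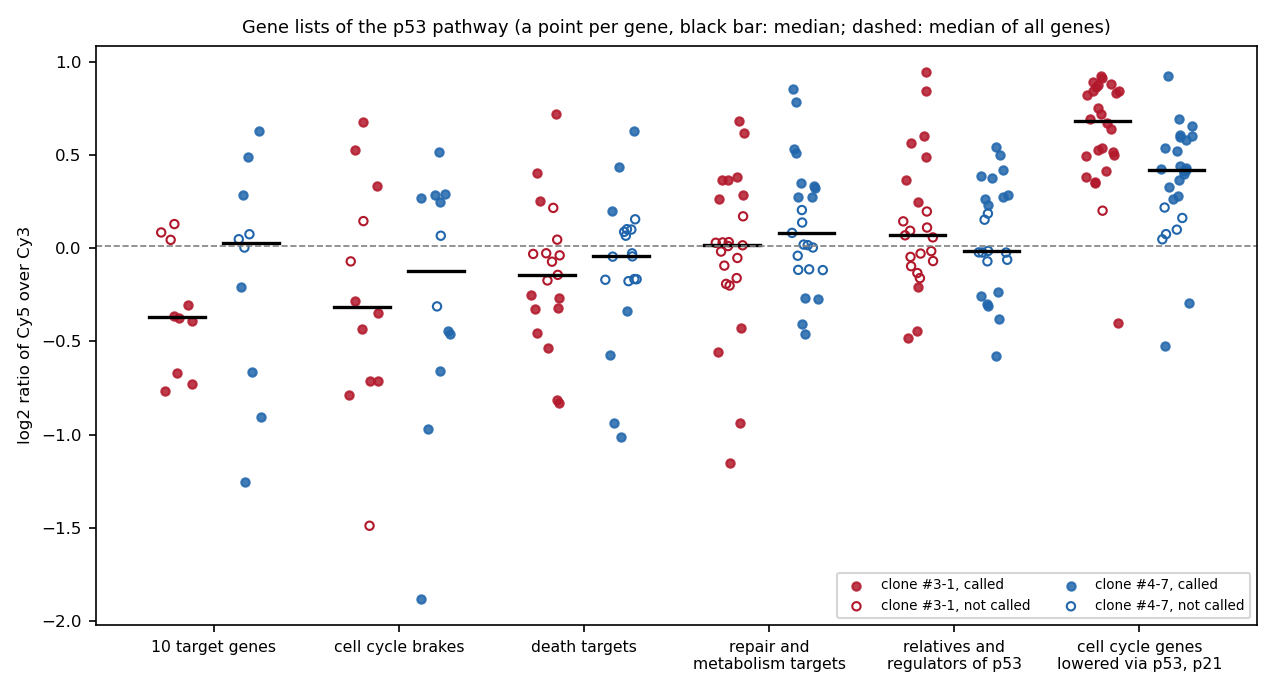
Log2 ratio of Cy5 over Cy3 of each gene, by its brightest probe, for the 10 target genes and 5 lists of the p53 pathway in clone #3-1 (red) and clone #4-7 (blue); filled points were called, open points were not, black bars are medians and the dashed line is the median of all genes in clone #3-1. The division genes lie mostly above 0, with medians of 0.68 and 0.42, and the other lists hold called genes on both sides.

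Close relatives of the members did not always follow them. Of 14 relatives, 6 were higher and 3 lower in Cy5 in clone #3-1 (16.3% and 16.5% of all genes), and 6 were higher and 2 lower in clone #4-7 (15.8% and 15.3%). GADD45B, unlike GADD45A, had opposite signs (0.32 and -1.36), with a clone difference of 1.68 (adjusted p = 4.54e-05). CDKN1C, the p57 inhibitor related to p21, had the signs of CDKN1A (-0.23 and 0.57). BTG1 was lower in both clones like BTG2, while BTG3 was higher in both (0.27 and 0.55). The phosphatase PPM1A (0.42 and 0.22) and the TGF-beta family member GDF11 (0.36 and 0.43) were higher in both.

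The labelled cell type was checked by markers. Of 10 colon epithelial markers, 7 were well above background on all arrays in both channels, and VIL1, CDX1 and CEACAM5 on none. EPCAM, CDH1, KRT8 and ELF3 were called lower in Cy5 in both clones, KRT18 lower in clone #4-7 alone, and KRT19 with opposite signs (-0.80 and 0.36). The log2 of the summed signal of the 10 was between 18.58 and 18.66 in Cy5, between 19.10 and 19.11 in Cy3 on the #3-1 arrays, and between 18.54 and 18.64 in Cy3 on the #4-7 arrays. Of 11 markers of fibroblasts, leukocytes, endothelium and red cells, 6 were well above background on no array, including PTPRC, PECAM1, COL3A1 and HBB, and 4 were on all arrays in both channels, COL1A1, CD3E, CD14 and HBA1. The log2 of the summed signal of the 11 lay between 11.20 and 11.31 in Cy5, between 11.06 and 11.09 in Cy3 on the #3-1 arrays, and between 11.60 and 11.61 in Cy3 on the #4-7 arrays. HBA1 was called higher in Cy5 in both clones (1.17 and 0.38) and COL1A1 lower in both (-0.59 and -1.13), while CD3E and CD14 were called in neither. The part of these markers in the values of the p53 targets was not tested. In bulk RNA, fewer cells expressing a gene and less of its RNA per cell cannot be told apart.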

How the data were processed

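RNA of 2 clones and a shared empty vector control was read on 4 two-colour arrays. The authors deposited mean and local background intensity, processed intensity and the log10 ratio of Cy5 over Cy3 per spot, with flags of 0 or 1 (whole-number scores of outlier, saturated and well-above-background spots), as Feature Extraction read them (version 8.5.1.1 in the submitters' processing notes, 9.5.3.1 in the file headers), and a deposited table of log10 ratios. Intensities were corrected with normexp (offset 50) in R 4.3.3 with limma 3.58.1, then normalized by loess within each array and then by quantiles across arrays, as log2 values. The study's methods name background correction, log-normalization within arrays and quantiles between them; normexp, its offset and loess were chosen here. Outlier spots (87 to 125 of 43376 an array) and 1639 controls were left out, and spots of a probe were averaged. Between 68.5% and 72.6% of spots were well above background; 2 arrays a clone limit the precision, and the median SD between arrays of a clone was 0.0385 and 0.0373 (log2). The file headers give 1 scan time.

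A model with a term for each clone, over all arrays, tested each ratio against 0, so that the spread of the control itself is not covered, and the difference between clones; single channels were tested after loess and Aquantile. A gene is represented by its brightest probe. The fit was tested on simulated data. The members and gene lists were chosen with earlier results of these data known. Some items are not reported here, and the lists and counts leave them out. Named were all members and MDM4 with each probe, up to 3 genes per direction of each list called alike in both clones with the largest mean, and up to 2 per list with the largest called clone difference; marker genes and CDH1 and VIM are given as checks. TP53AIP1, DRAM1 and ACER2 were not matched by name. Probe positions are those of hg17 in the files, for which no exon annotation was used here. Of the 13 member probes, 12 matched their symbol in RefSeq by accession. Alternatives covered background, signal source, normalization, dim probes, prior, threshold, block and left-out arrays. They were read for the counts of called probes and for the members, not for MDM4 or the genes of the other lists.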

Additional observations from a re-analysis of the deposited data

Results flagged for a closer look

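Of the genes named by rule in the report, those are listed here whose clones differed by limma's test of the difference itself, #3-1 minus #4-7 arrays, on the log2 scale. Other genes of the lists were called too and are given only as counts. Alternative processing was followed for single member probes only, so the calls of MDM4 and of the list genes were not checked under it. The differences of BID, UBE2C and PRKAB1 lay near the threshold (limma unadjusted p = 0.00067, 0.00069 and 0.000875). An effect of the vector cannot be told apart here from a difference between clones.

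Among the members these were CDKN1A (-1.29 and -1.42 by its probes), SESN1 (-0.85 and -0.59), FDXR (-0.35), BTG2 (0.49) and GADD45A (0.51), and beside them the brightest MDM4 probe (-0.52). The MDM4 probes A_24_P362432 (-0.29) and A_24_P778649 (0.16) were not called for the difference and had opposite signs. As given above, the calls of FDXR and of the second SESN1 probe were lost under several alternatives. The sign of CDKN1A, SESN1 and FDXR was opposite to that of BTG2 and GADD45A.

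Of the other p53 targets named, SFN (-0.96), PHLDA3 (-0.66), BID (-0.37), POLH (-0.50), SERPINB5 (-1.28), CD82 (-0.69), DDB2 (-0.78) and PLTP (-0.48) had the lower ratio on the #3-1 arrays. PLK2 (2.21), PMAIP1 (0.40), FAS (0.52), PERP (0.55) and PRKAB1 (0.36) had the higher one.

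Of the 23 regulators 9 had the higher and 5 the lower ratio on the #3-1 arrays, where 11.3% and 11.6% of all genes did. CHEK1 (0.56), CDKN2A (0.87) and PPP1R13B (-0.82) were among these regulators. Of the 26 division genes 11 had the higher and 0 the lower ratio, among them UBE2C (0.32), MKI67 (1.05) and E2F1 (0.81). The relatives CDKN1C (-0.80) and GADD45B (1.68) differed in opposite directions.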

How the results depend on the processing

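Main values were 13396 probes called in clone #3-1, 12738 in clone #4-7 and 9268 between them. The counts moved, in that order, to 7747, 6696 and 4327 with a normexp offset of 0, 6275, 5732 and 3450 with plain subtraction, 8078, 7552 and 4828 with Feature Extraction's processed signals, 8773, 8326 and 5946 with the deposited table, and 22360, 21347 and 17393 at an adjusted p under 0.05. With an array left out, the lone array of a clone being assumed to vary like the others, they ranged from 7633 to 10955, 6609 to 10876 and 5119 to 5609. Member genes called ranged from 5 to 8, 5 to 8 and 4 to 7 over all alternatives (main 7, 7 and 5). Over the member probes and alternatives, 194 values for clone #3-1 kept their sign and side of the threshold, 11 lost the call and 3 gained it; for clone #4-7 181 kept it, 20 lost the call and 7 turned sign; for the difference 180 kept it, 13 lost and 2 gained it. The sign turns were of uncalled values near 0: FDXR in clone #4-7 (main 0.05) was -0.045 with processed signals, -0.045 with the table, and -0.0369 without normalization between arrays and with Aquantile; MDM2 A_23_P309545 in clone #4-7 was -0.0293 with those last 2 settings and ranged from -0.0159 (without #4-7 replicate 2) to 0.0217 with an array left out. The cause was not tested. Each clone fitted on its own arrays gives no clone difference.

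The labels number the replicates, but same-numbered arrays did not deviate together (correlation -0.013 across probes). With the replicate number as a block 11284, 10595 and 7275 probes and 7, 6 and 4 member genes were called, the lost calls being TP53I3 in clone #4-7 and the FDXR difference.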
